A study of Mus musculus with 24 samples.

Results

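The 10 genes described here belong to the network of imprinted genes that govern growth before and after birth: Plagl1, Grb10, Ddc, Peg3, Igf2, H19, Igf2r, Meg3, Dlk1 and Cdkn1c. They were taken by symbol from 56923 gene identifiers and selected on their levels across the 6 groups of day and genotype, which were already known, so their fold changes below are descriptions and carry no p-value. Of the 10 genes, 9 passed the filter on low counts, which left 20368 genes. Nuclei of cardiomyocytes (CMs) had been sorted from mouse hearts by PCM1, a protein of the CM nuclear surface, and their RNA was sequenced from the 3′ end at postnatal day 1 (P1), P7 and P14. Controls were XMLC2(-)Casp2(fl/fl) mice, with floxed Casp2 and no Cre. Casp2-depleted mice were XMLC2(+)Casp2(fl/fl), in which XMLC2-Cre removes Casp2 in CMs only. Both genotypes thus carried the floxed allele, and all groups were C57BL/6N of mixed sex. Each library was a pool of 15 hearts at P1, 6 at P7 and 2 at P14, with 4 libraries per genotype and day and 24 in all. The study left out 3 libraries for low quality (replicate 1 of the P1 controls, replicate 3 of the P14 controls and replicate 1 of the Casp2-depleted P14 group), which leaves 3 control and 4 Casp2-depleted libraries at P1, 4 of each genotype at P7 and 3 of each at P14.

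Imprinted genes are expressed from a single parental copy, because a mark set in the egg or sperm silences the other. Many of those expressed from the paternal copy promote growth and many expressed from the maternal copy restrain it, and a group of them is active in fetal tissues and shut down together after birth. PLAGL1 is a zinc finger transcription factor that regulates other genes of the group. GRB10 is an adaptor protein that binds the insulin and IGF1 receptors and limits their signal. DDC makes dopamine and serotonin from their precursors, and its gene lies beside Grb10 and has a heart transcript that is imprinted.

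Between 891817 and 2924097 reads fell on genes in each of the 21 libraries (median 1452114), and 34.3 to 76.1% of uniquely placed reads were outside genes. This share was 63.7 to 76.1% in the 6 P14 libraries, 34.3 to 64.3% in the 8 P7 libraries and 36.8 to 73.9% in the 7 P1 libraries. The cells were checked against 15 CM markers, of which 13 to 15 were detected in every library. Their summed level was 75556 to 102939 CPM without TMM scaling in P7 controls and 19096 to 56354 in P14 controls, and 55869 to 77245 against 18637 to 35587 in Casp2-depleted CMs. Markers of fibroblasts, endothelial, mural, epicardial and erythroid cells and macrophages were low by comparison, and only the 10 endothelial markers reached 1227 CPM in a library. Their sum was 612 to 691 in P14 against 186 to 535 in P7 Casp2-depleted CMs, and 150 to 1227 against 163 to 396 in controls, and Egfl7, Cd68, C1qc and Klf1 of these lists had no read. At P1 the CM markers summed to 30893 to 65685 CPM in controls and 37643 to 95655 CPM in Casp2-depleted CMs. The P14 libraries had lower CM marker sums than P7 libraries in both genotypes and than P1 libraries in Casp2-depleted CMs, and a higher unassigned share, 63.7 to 75.2% against 36.7 to 54.7% at P7 in controls and 72.2 to 76.1% against 34.3 to 64.3% at P7 and 36.8 to 70.6% at P1 in Casp2-depleted CMs. Against P1 controls, with a share of 60.7 to 73.9%, both overlapped. The part of the markers in the results below was not tested. In bulk nuclei, fewer cells of a type and less RNA per cell cannot be told apart. The deleted gene was no check of the labels, since Casp2 had 0 reads in all 13 P1 and P14 libraries and at most 5 reads in any P7 library.

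Levels of the 10 genes are in CPM, the counts of a gene relative to the reads on genes of its library after scaling by the TMM factor. A gene is called when edgeR's quasi-likelihood test gives a Benjamini-Hochberg adjusted p below 0.05 and the log2 fold change exceeds 1 in size. Fold changes are on the log2 scale, from a fit over 6 group means. The standard error (SE) given with them is approximate. It is the size of the fold change divided by the square root of its F statistic.

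On GRCm39, Plagl1 spans 12936248 to 13007438 on chromosome 10. Grb10 and Ddc lie 32.3 kb apart on chromosome 11, at 11880498 to 11988683 and 11762602 to 11848150. Peg3 lies on chromosome 7 at 6706882 to 6733468, and Usp29, a neighbouring paternally expressed gene for a deubiquitinating enzyme, starts 0.1 kb away on the other strand. Igf2, H19 and Cdkn1c also lie on chromosome 7, Igf2r on chromosome 17, and Dlk1 and Meg3 77.6 kb apart on chromosome 12.

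Sequence around the start sites is shown for the 4 genes that were called, because their promoters differ strongly in CpG, the dinucleotide at which imprints are set. RefSeq held windows of 300 bases, 250 before and 50 after a start site, for 8 of the 10 genes on GRCm38.p6, a build other than that of the coordinates above. The lines below give them 5′ to 3′ with every CpG in capitals.
Plagl1 (chr10:13090582-13090881, plus strand): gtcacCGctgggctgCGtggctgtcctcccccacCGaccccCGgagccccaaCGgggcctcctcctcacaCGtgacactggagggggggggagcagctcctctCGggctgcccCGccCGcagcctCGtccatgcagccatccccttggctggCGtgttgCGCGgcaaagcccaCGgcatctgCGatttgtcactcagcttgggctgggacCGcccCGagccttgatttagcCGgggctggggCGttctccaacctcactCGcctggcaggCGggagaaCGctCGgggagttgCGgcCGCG
Grb10, upstream start (chr11:12037371-12037670, minus strand): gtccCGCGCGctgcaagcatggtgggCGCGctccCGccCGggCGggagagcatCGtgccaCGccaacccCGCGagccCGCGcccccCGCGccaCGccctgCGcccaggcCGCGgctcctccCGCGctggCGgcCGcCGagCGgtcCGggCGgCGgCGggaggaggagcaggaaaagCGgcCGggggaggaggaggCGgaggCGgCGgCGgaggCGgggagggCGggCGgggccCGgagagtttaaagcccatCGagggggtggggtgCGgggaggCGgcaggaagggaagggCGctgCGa
Ddc, upstream start (chr11:11898095-11898394, minus strand): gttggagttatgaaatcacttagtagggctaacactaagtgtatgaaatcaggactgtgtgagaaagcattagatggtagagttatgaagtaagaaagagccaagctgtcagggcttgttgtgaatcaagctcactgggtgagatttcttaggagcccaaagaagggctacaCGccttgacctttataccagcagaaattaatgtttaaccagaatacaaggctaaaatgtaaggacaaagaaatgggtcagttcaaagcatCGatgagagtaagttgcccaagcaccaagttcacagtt
Ddc, downstream start (chr11:11890359-11890658, minus strand): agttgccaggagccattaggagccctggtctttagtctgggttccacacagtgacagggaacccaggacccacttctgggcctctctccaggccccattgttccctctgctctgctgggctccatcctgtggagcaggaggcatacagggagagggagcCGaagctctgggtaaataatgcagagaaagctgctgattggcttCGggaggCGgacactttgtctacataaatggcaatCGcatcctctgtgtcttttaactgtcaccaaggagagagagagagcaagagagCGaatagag
Peg3 (chr7:6730370-6730669, minus strand): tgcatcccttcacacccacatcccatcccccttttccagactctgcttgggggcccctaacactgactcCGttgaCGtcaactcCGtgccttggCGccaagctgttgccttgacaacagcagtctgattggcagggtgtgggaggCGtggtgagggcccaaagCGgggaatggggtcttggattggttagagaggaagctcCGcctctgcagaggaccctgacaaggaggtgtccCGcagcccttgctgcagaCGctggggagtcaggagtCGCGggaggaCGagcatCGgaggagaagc
The upstream Grb10 window held 45 CpG, and 1.93% of all 32851 windows held at least as many. The Plagl1 window held 26, a count reached by 16.9% of windows, and the Peg3 window held 13, reached by 37.9%. The Ddc windows held only 2 and 5, below the median of 7 over all windows, and 85.9 and 62.0% of windows held at least as many. A second Grb10 window, at a start further downstream, held 9. The Peg3 window shared 263 bases with the window of Usp29, which reads the other way. The hexamer TGCCGC, which ZFP57 binds when it is methylated, occurred on either strand in 4 of the 14 windows of the 10 genes and in 11.6% of all windows. These letters are a description and say nothing about binding in these hearts.

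Summed over the 10 genes, the level was 3653 ± 894 CPM (SD, n = 3) at P1, 1818 ± 985 (n = 4) at P7 and 364 ± 251 (n = 3) at P14 in controls, and 4080 ± 1400 (n = 4), 2064 ± 804 (n = 4) and 402 ± 86.5 (n = 3) in Casp2-depleted CMs. Plagl1 was among the most read of the 10 genes, with 27835 of their reads, and Ddc held 28873. These were 39.8 and 41.3% of all reads on the 10 genes. Plagl1 had 953, 1664 and 1939 CPM in the P1 controls, 317, 1335, 622 and 621 CPM in the P7 controls and 86.2, 45.8 and 125 CPM in the P14 controls. In Casp2-depleted CMs it had 743, 2613, 1511 and 1797 CPM at P1, 627, 1820, 532 and 703 CPM at P7 and 83.2, 14.5 and 185 CPM at P14. In both genotypes every P14 library lay below every P7 and P1 library, and the P1 and P7 libraries overlapped. The group means were 1519 ± 509 (SD, n = 3), 724 ± 432 (n = 4) and 85.5 ± 39.4 CPM (n = 3) in controls and 1666 ± 772 (n = 4), 920 ± 603 (n = 4) and 94.2 ± 85.7 CPM (n = 3) in Casp2-depleted CMs. The change from P7 to P14 was -3.08 ± 0.49 (log2, SE) in controls and -3.29 ± 0.49 in Casp2-depleted CMs. From P1 to P14 it was -4.15 ± 0.53 and -4.14 ± 0.52.

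Ddc had 1553, 2324 and 1308 CPM in the P1 controls, 443, 1522, 543 and 461 CPM in the P7 controls and 6.36, 252 and 350 CPM in the P14 controls. In Casp2-depleted CMs it had 970, 3133, 1193 and 1118 CPM at P1, 624, 1083, 510 and 952 CPM at P7 and 167, 211 and 244 CPM at P14. The kept P14 libraries again lay below all P7 and P1 libraries of their genotype, except that P14 and P7 controls overlapped without TMM factors. The lowest P14 control library, replicate 1, stood far under the other 2. In P14 Casp2-depleted replicate 1, which the study left out, Ddc had 463 CPM without TMM scaling. That was above P7 Casp2-depleted replicates 1 and 3, at 457 and 440. The log2 change from P7 to P14 was -1.87 ± 0.48 in controls and -1.93 ± 0.48 in Casp2-depleted CMs, and from P1 to P14 it was -3.09 ± 0.52 and -2.95 ± 0.50. The calls of Ddc were the less stable for the step from P7 to P14, held in 6 of 19 alternatives in each genotype and lost in both with no filter, filterByExpr, RLE factors, DESeq2, limma-voom, all 24 libraries, no TMM factors and the unassigned share as a term. In controls the call was also lost without replicate 1 or 2 of P7 or of P14, and in Casp2-depleted CMs without replicate 1 or 2 of P7 or any replicate of P14. With RLE factors the change was -1.51 in controls and -1.53 in Casp2-depleted CMs, and without TMM factors it was -0.85 and -1.12. The calls from P1 to P14 held in 12 of 18 alternatives in controls and 13 of 20 in Casp2-depleted CMs, where it was lost without P1 replicate 4. For Plagl1 the calls held in 16 of 19 and 16 of 18 alternatives in controls, from P7 and from P1, and in 17 of 19 and 18 of 20 in Casp2-depleted CMs, and leaving out a single library ended none of them.

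Grb10 was read less often, with 3917 reads over the 21 libraries. It had 64.4, 93.0 and 70.7 CPM in the P1 controls, 150, 134, 92.3 and 7.50 CPM in the P7 controls and 3.53, 0.75 and 0 CPM in the P14 controls. The P14 control values rest on 5, 1 and 0 reads. Casp2-depleted CMs had 488, 49.8, 92.1 and 507 CPM at P1, 151, 110, 72.9 and 53.4 CPM at P7 and 37.4, 42.2 and 1.97 CPM at P14. The P1 and P7 controls overlapped and the P14 controls lay below both, with a change of -5.97 ± 1.08 against P7 and -5.64 ± 1.08 against P1 on the log2 scale, both called. In Casp2-depleted CMs the change was -1.83 ± 0.84 against P7, which was not called, and -3.38 ± 0.90 against P1, which was called. The P1 value of this last comparison rests on 2 libraries, replicates 1 and 4, and without both the change was -1.38 and was not called. This call held in 11 of 20 alternatives and was lost without either of those libraries or without P14 replicate 3 or 4.

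**Figure D1:**
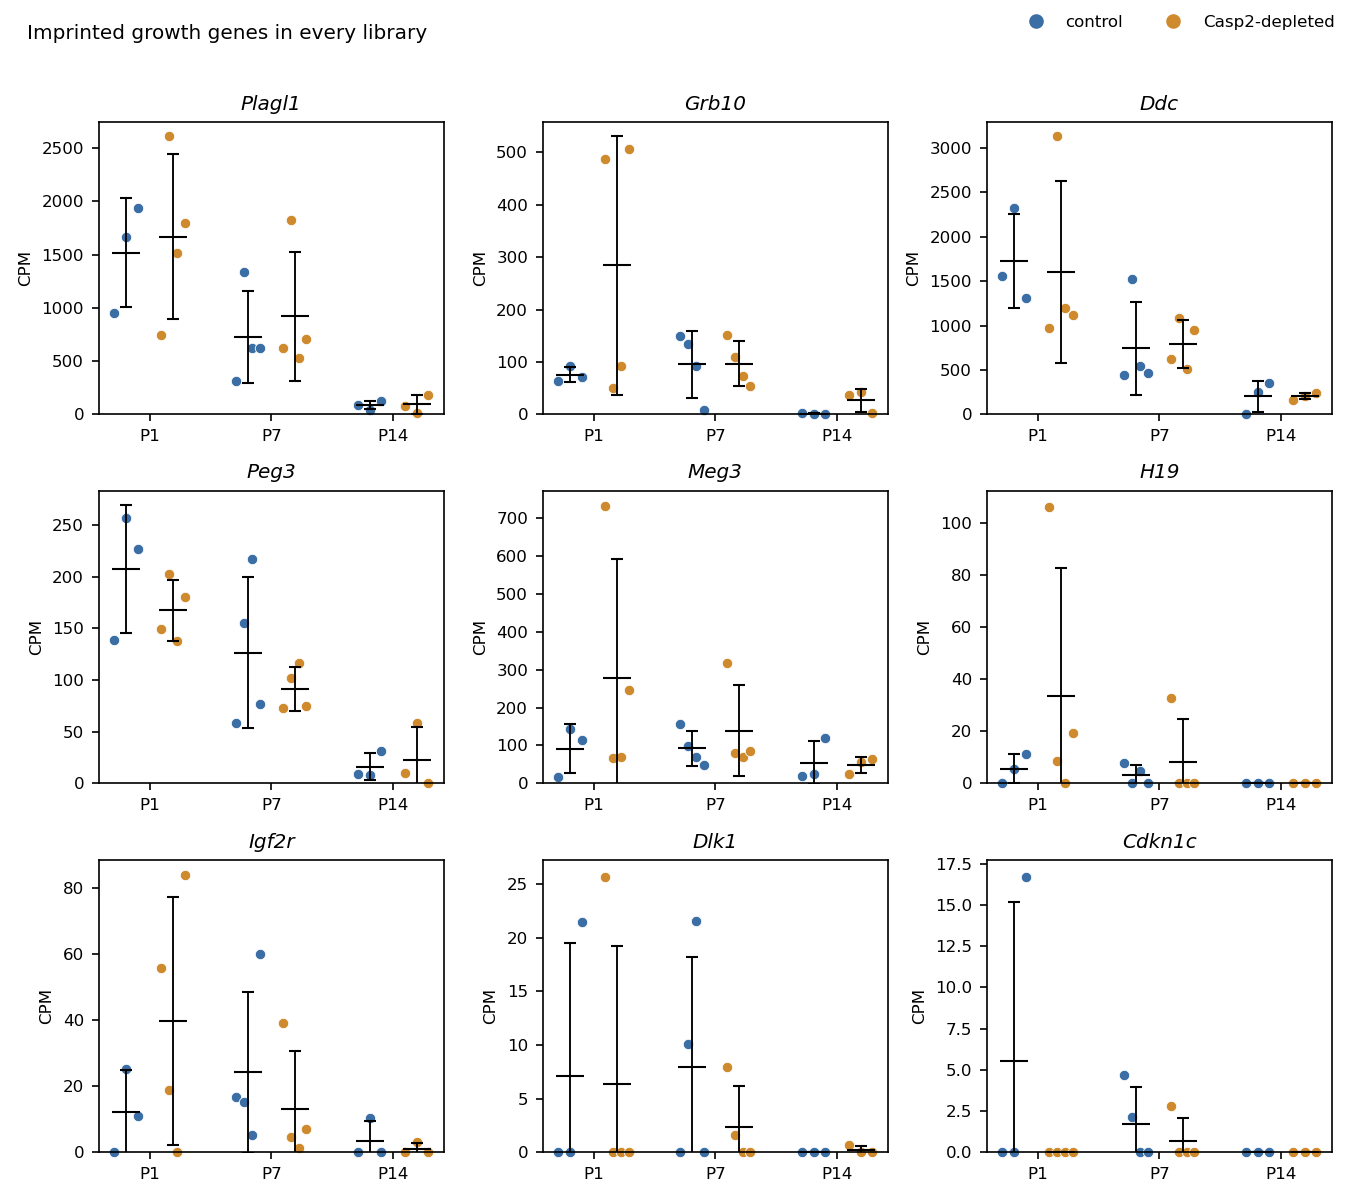
Level in CPM (y axis, linear, from 0) of 9 imprinted growth genes in each library by day, for controls (blue) and Casp2-depleted CMs (orange), with the group mean (horizontal bar) and SD (error bars, which may run past 0). On this TMM scale Plagl1, Ddc and Peg3 sit lowest at P14 in both genotypes, while the high P1 libraries of Grb10, Meg3 and H19 are Casp2-depleted replicates 1 and 4.

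Peg3, a paternally expressed zinc finger gene that acts in maternal behaviour and growth, had 138, 257 and 226 CPM in the P1 controls, 58.0, 155, 217 and 76.5 CPM in the P7 controls and 9.19, 8.25 and 31.1 CPM in the P14 controls. Casp2-depleted CMs had 149, 203, 138 and 180 CPM at P1, 72.9, 101, 116 and 75.2 CPM at P7 and 9.87, 58.6 and 0 CPM at P14. P14 lay below P7 and P1 in both genotypes without overlap, though without TMM factors P14 and P7 overlapped in Casp2-depleted CMs. In Casp2-depleted CMs P7 also lay below P1 without overlap, at -0.87 ± 0.73. The change from P7 to P14 was -2.96 ± 0.88 in controls, which was called, and -1.996 ± 0.84 in Casp2-depleted CMs, which was not. From P1 to P14 it was -3.67 ± 0.93, called, and -2.87 ± 0.87, not called. The interaction of genotype with the step from P7 to P14 was 0.97 ± 1.12 for Peg3 and was not called. In Casp2-depleted CMs, Peg3 was called in 1 of 19 alternatives against P7 and in 6 of 20 against P1. The control calls of Peg3 held in only 4 of 19 alternatives against P7 and 5 of 18 against P1, and were lost with RLE factors among others. The call against P7 was also lost without replicate 1, 2 or 3 of P7 or replicate 1 or 2 of P14, and that against P1 without replicate 3 or 4 of P1 or replicate 1 or 2 of P14. When replicate numbers were fitted as a block, the control changes were -2.56 and -3.22 and were not called, and the Casp2-depleted change from P1 was -3.66 and was called.

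Usp29, which starts beside Peg3, was compared with it within each library, a comparison that does not depend on the scaling. Peg3 made up 35.3, 72.7 and 61.0% of the reads on both genes in the P1 controls, 42.9, 69.6, 57.2 and 48.8% in the P7 controls and 4.59, 10.6 and 11.6% in the P14 controls. In Casp2-depleted CMs the share was 56.5 to 71.0% at P1, 43.7 to 58.2% at P7 and 0, 5.26 and 40.4% at P14. Every P14 library lay below the lowest P7 library of its genotype, with the highest at 40.4% close to the lowest P7 value of 43.7%. The log2 change of Usp29 itself from P7 to P14 was 0.77 ± 0.72 in controls and 0.90 ± 0.72 in Casp2-depleted CMs, and neither was called. The shares of Grb10 and Ddc overlapped between days, and Grb10 made up 0.30, 0 and 35.7% of their reads in the P14 controls against 1.60 to 25.3% in the P7 controls.

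**Figure D2:**
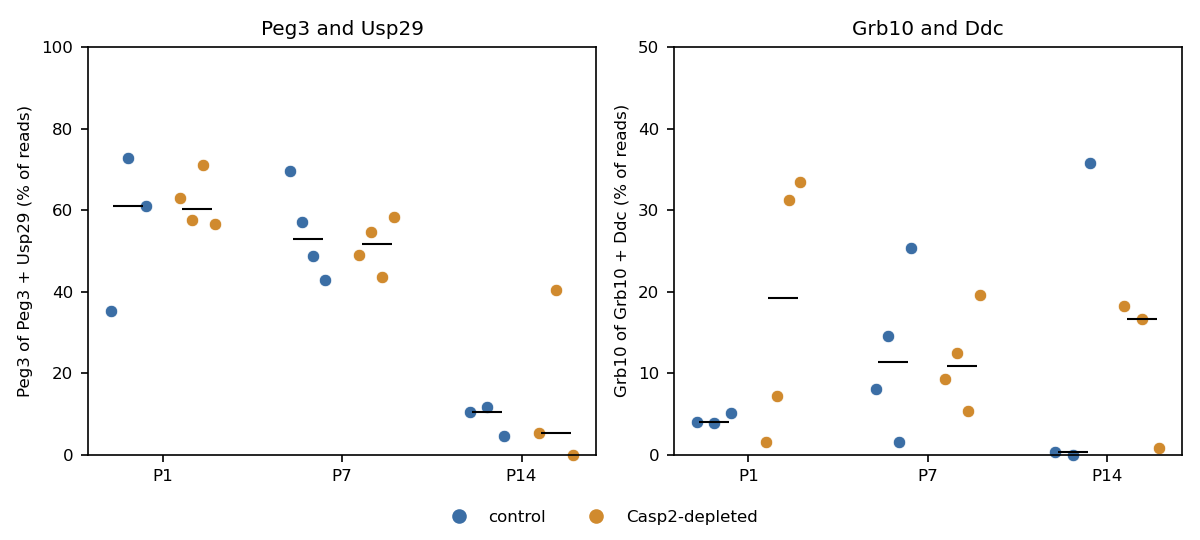
Share of reads (y axis, percent, from 0) that fell on Peg3 out of Peg3 and Usp29 (left) and on Grb10 out of Grb10 and Ddc (right) in each library by day, for controls (blue) and Casp2-depleted CMs (orange), with group medians as bars. The P14 libraries of the left panel lie at 0 to 40.4% and those of P1 and P7 at 35.3 to 72.7%, while the groups of the right panel overlap.

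Of the 10 genes, 4 were called lower at P14 than at P7 in controls, namely Plagl1, Grb10, Ddc and Peg3, where 1.87% of the 20368 genes were called lower. The same 4 were called lower at P14 than at P1 in controls, where 0.314% of genes were. In Casp2-depleted CMs 2 were called lower than at P7, Plagl1 and Ddc, where 2.82% of genes were, and 3 lower than at P1, Plagl1, Grb10 and Ddc, where 1.92% were. All libraries of P14 lay below those of the earlier day for 4 of the genes against P7 controls (13.5% of all genes), 4 against P1 controls (6.41%), 5 against P7 Casp2-depleted CMs (10.9%) and 5 against P1 Casp2-depleted CMs (4.78%), these 5 being the 4 genes and Meg3, and P7 lay below P1 for Peg3 alone in Casp2-depleted CMs (0.476%). Without TMM factors these counts were 3 (Plagl1, Grb10 and Peg3, with 9.5% of all genes), 4 (5.2%), 2 (Plagl1 and Ddc, with 7.61%), 3 (Plagl1, Ddc and Peg3, with 3.63%) and 1 (0.707%). The median log2 change of all genes from P7 to P14 in controls was -0.75, or -0.52 with RLE size factors and 0 without scaling factors, so the members' values are read against it. The 15 CM markers fell too, with medians of -2.24 in controls and -2.33 in Casp2-depleted CMs. Of these markers 6 were called lower in each genotype. The medians of the 9 tested members were -3.08 and -2.99. From P1 to P14 the marker medians were -0.93 and -2.59, and those of the members -4.15 and -3.38. Whether the members fell more than CM genes was not tested. No member was called higher at a later day.

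With the unassigned share, the percentage of uniquely placed reads outside genes, as a term in the fit, 1 of the 10 genes (Grb10) was called from P7 to P14 in controls, 2 (Grb10 and Peg3) from P1 to P14, and none in Casp2-depleted CMs. Over all genes the calls in this fit were 38 in place of 382 and 66 in place of 65 in controls, and 147 in place of 577 and 95 in place of 396 in Casp2-depleted CMs. Plagl1 then changed by -2.84 from P7 to P14 in controls and by -3.05 in Casp2-depleted CMs, and Ddc by -2.26 and -2.24. Grb10 in Casp2-depleted CMs changed by 0.13 in place of -1.83 from P7 to P14. With all 24 libraries 35 genes were called from P7 to P14 in controls, of the members only Grb10, and Plagl1 changed by -2.57.

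**Figure D3:**
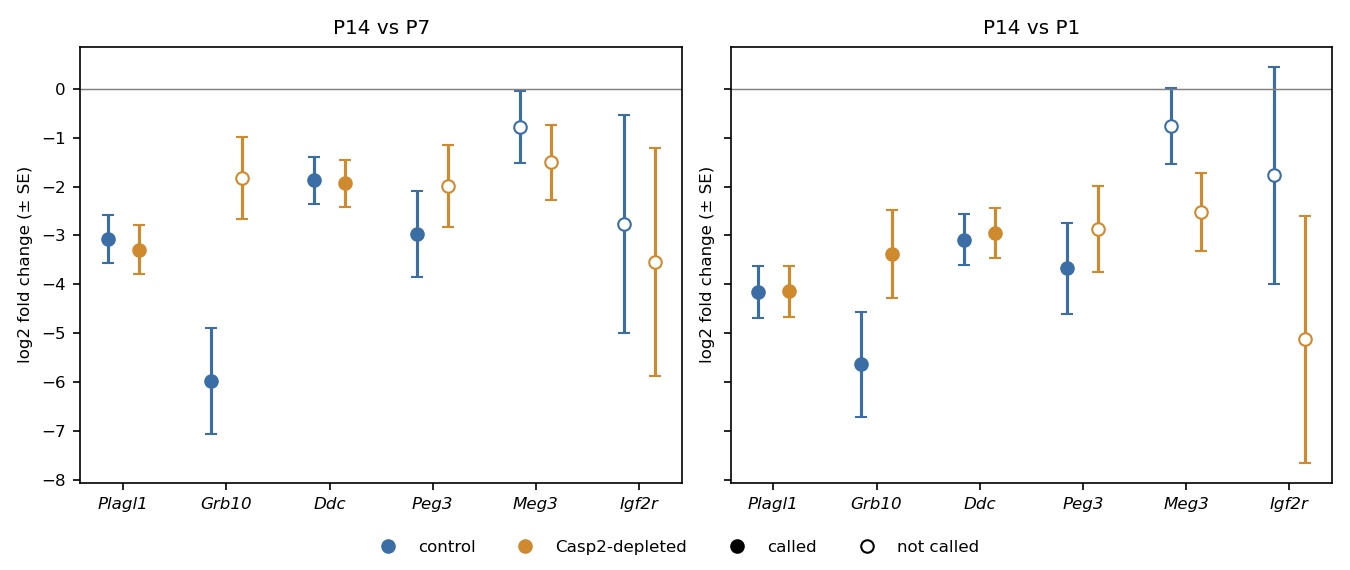
Log2 fold change (y axis, error bars SE derived from the F statistic) from P7 to P14 (left) and from P1 to P14 (right) for 6 genes in controls (blue) and Casp2-depleted CMs (orange), with filled points called and open points not called. Plagl1 and Ddc lie close together in the 2 genotypes, at -3.08 and -3.29 and at -1.87 and -1.93 for P7 to P14, while Grb10 lies at -5.97 and -1.83.

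Between P1 and P7 no member was called in either genotype, where edgeR called 0.00982% of genes in controls and 0.0196% in Casp2-depleted CMs. DESeq2 called 88 and 46 genes and limma-voom 49 and 8, none of them a member. The changes of Plagl1 were -1.07 ± 0.43 and -0.86 ± 0.40, and those of Ddc were -1.22 ± 0.45 and -1.02 ± 0.42.

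Genotypes were compared at each day to see whether Casp2 loss shifts these genes. At P1 and P7 edgeR called 0 genes (0%), with 1496 and 860 genes at an unadjusted p below 0.05, and DESeq2 called 105 and 25 and limma-voom 49 and 0, none of them a member. In simulated counts for genotypes at P7, the edgeR fit recovered only 43 of 100 genes changed 16-fold and 3 of 100 changed 4-fold. The changed genes were drawn from all those above the median level, so this does not give the recovery of a given member. Plagl1 differed by 0.13 ± 0.43 at P1, 0.35 ± 0.40 at P7 and 0.14 ± 0.47 at P14 (log2, Casp2-depleted minus control), and Ddc by -0.11 ± 0.45, 0.09 ± 0.42 and 0.03 ± 0.48. At P14 Grb10 was called higher in Casp2-depleted CMs, by 4.16 ± 1.03, where 0.167% of genes were called. The groups overlapped, with 53, 67 and 3 reads in Casp2-depleted libraries against 5, 1 and 0 in controls, and within the 2 replicate numbers present in both groups the counts were 53 against 1 and 3 against 0. The call held in 7 of 18 alternatives. It was lost without P14 control replicate 2, P14 control replicate 4 or P14 Casp2-depleted replicate 3, with no filter, filterByExpr, limma-voom, all 24 libraries, no TMM factors or the fit of the 2 groups alone, and in edgeR without the robust option or with the newer quasi-likelihood method. The interaction of genotype with the step from P7 to P14 was 4.14 ± 1.23 for Grb10, which was not called, where 0.0245% of genes were. For the step from P1 to P7 no gene was called (0%), with 1392 genes at an unadjusted p below 0.05, 66 called by DESeq2 and 4 by limma-voom.

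Among the maternally expressed genes, Meg3, a long noncoding RNA, had 18.1, 142 and 114 CPM in the P1 controls, 156, 97.9, 69.4 and 48.7 CPM in the P7 controls and 18.4, 24.8 and 119 CPM in the P14 controls. In Casp2-depleted CMs it had 733, 67.4, 70.4 and 246 CPM at P1, 319, 80.1, 70.9 and 85.1 CPM at P7 and 25.4, 57.4 and 63.6 CPM at P14. Its control groups overlapped at all 3 days, and in Casp2-depleted CMs P14 lay below P7 and P1 without overlap, at -1.51 ± 0.76 and -2.52 ± 0.79, neither called, and overlapped both without TMM factors. H19, another noncoding RNA, had a read in 8 of the 21 libraries and 376 reads in all, 211 of them in P1 Casp2-depleted replicate 1. None of the 6 P14 libraries held a read of H19. On reads summed over each group, controls were at least 6.87-fold lower than at P1 and Casp2-depleted CMs at least 57.4-fold lower. Each group of P14 libraries together was taken at a floor of 3 reads. Neither change was called, and the groups overlapped, since P1 control replicate 2 and P1 Casp2-depleted replicate 3 also held 0 reads. Without P1 Casp2-depleted replicate 1 the Casp2-depleted bound rested on 51 reads and was at least 15.7-fold. H19 lies wholly inside genes of the other strand.

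Igf2r, the maternally expressed receptor that clears IGF2, had 618 reads in 15 libraries. It had 0, 36 and 14 reads in the P1 controls, 32, 21, 8 and 80 in the P7 controls and 0, 14 and 0 in the P14 controls. Casp2-depleted CMs had 111, 27, 0 and 168 reads at P1, 84, 6, 2 and 10 at P7 and 0, 5 and 0 at P14. The groups overlapped in every comparison and none was called. Airn, the paternally expressed noncoding RNA that runs antisense through part of Igf2r and silences it, had 79827 reads in the same libraries, and Igf2r made up 0 to 3.09% of the reads on both. Airn was called lower at P14 in both genotypes, by -1.71 ± 0.39 against P7 in controls and by -2.60 ± 0.40 in Casp2-depleted CMs. Without TMM factors these changes were -0.92, which was not called, and -1.77, which was.

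Igf2, Dlk1 and Cdkn1c gave little information. Igf2, the paternally expressed fetal growth factor, was listed at 0 in all 24 libraries, and since it lies wholly inside Gm49394 on the same strand, its reads could not be assigned and the 0 is no level. Among genes inside a gene of the same strand 0.865% had 10 or more reads, against 30.2% of genes inside a gene of the other strand only. Dlk1, a paternally expressed transmembrane regulator of growth, had 145 reads in 7 libraries, 1 of them at P14. Cdkn1c, the maternally expressed inhibitor of cell cycle kinases, had 39 reads in 4 libraries and lies wholly inside 4933417O13Rik on the same strand, so that its count is uncertain.

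In the P1 Casp2-depleted group the spread of several genes came from 2 libraries. Replicates 1 and 4 held 970 and 1014 reads of Grb10 against 71 and 136 in replicates 2 and 3, and 1457 and 493 reads of Meg3 against 96 and 104. Igf2r had 111 and 168 reads against 27 and 0. The unassigned share was 49.8 and 36.8% in replicates 1 and 4 and 68.2 and 70.6% in replicates 2 and 3. P1 control replicate 1, which the study left out, had a share of 9.21% and the highest levels of Grb10 and Meg3 at P1, with 958 and 797 CPM without TMM scaling. The study took the profile of this control library as a sign of cytoplasmic contamination. Plagl1 had 1478 and 3596 reads in replicates 1 and 4 and 3724 and 2231 in replicates 2 and 3, without such a split. The part of the unassigned share in these values was not tested for the P1 libraries alone.

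**Figure D4:**
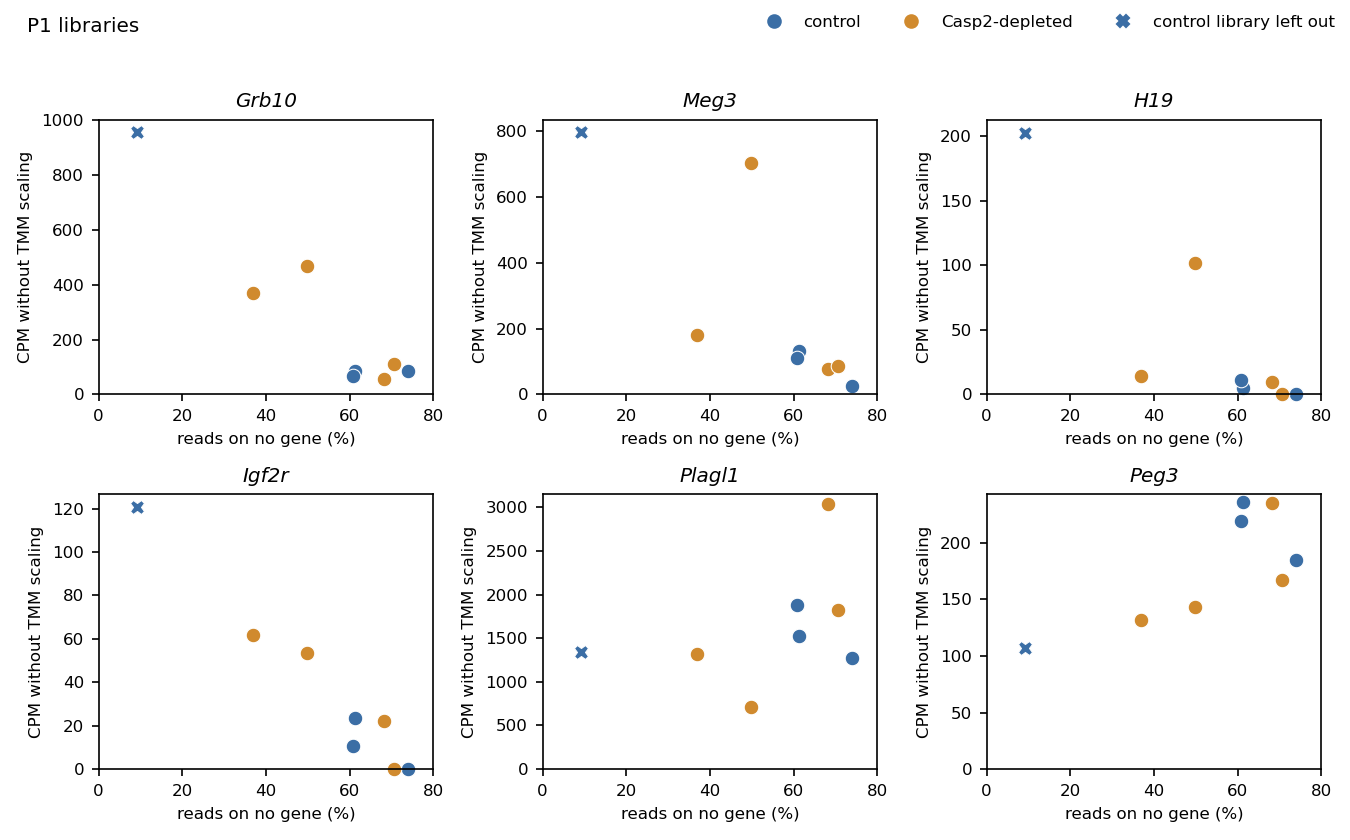
CPM without TMM scaling (y axis, linear, from 0) against the share of uniquely placed reads on no gene (x axis, percent) for 6 genes in the 8 P1 libraries, controls in blue, Casp2-depleted CMs in orange and the control library left out by the study as a cross. Grb10, Meg3, H19 and Igf2r are highest in the library at 9.21%, and the 2 orange libraries at 36.8 and 49.8% stand above the others for Grb10, Meg3 and Igf2r. The study saw signs of cytoplasmic contamination in the library at 9.21%.

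The genes that share a locus with the 10, other imprinted genes, genes of IGF and insulin signalling and genes that maintain imprints were described as lists. For the step from P7 to P14, 1.87% of all tested genes were called lower in controls and 2.82% in Casp2-depleted CMs. Of 24 genes at the loci, 21 were tested and 2 were called lower from P7 to P14 in controls, Airn and Phactr2, and the same 2 in Casp2-depleted CMs. Of 35 other imprinted genes, 23 were tested and 1 was called lower in controls, Ppp1r9a, at -2.35 ± 0.61, and 3 in Casp2-depleted CMs, among them Gnas, which encodes the stimulatory G protein subunit, at -3.55 ± 0.69. Of 26 genes of IGF and insulin signalling, 23 were tested. Irs2, an adaptor of the insulin receptor, was called lower in both genotypes, with no read in the 6 P14 libraries, which put it at least 89.0-fold lower than at P7 in controls. Insr, the insulin receptor, was called lower from P7 to P14 in Casp2-depleted CMs, at -2.48 ± 0.59. Of 15 genes that maintain imprints, 13 were tested, and Dnmt3a, a DNA methyltransferase, was called lower in controls at -1.93 ± 0.53 and Ctcf, an insulator protein, in Casp2-depleted CMs at -3.65 ± 1.05. From P1 to P14 Airn was called lower in controls, where 0.314% of all tested genes were. In Casp2-depleted CMs, Airn, Phactr2, Gnas, Irs2 and Insr were called lower, where 1.92% of all tested genes were. No listed gene was called higher in a comparison of days or genotypes or called in any comparison of P7 with P1 or of genotypes. Against the median of all genes, -0.75 from P7 to P14 in controls, the medians of the loci, other imprinted, IGF and maintenance lists were -0.30, -0.45, -1.66 and -1.38. In Casp2-depleted CMs they were -0.97, -1.39, -0.60 and -1.21 against -0.61 over all genes, so of the 4 lists only the maintenance list lay below the median of all genes in both genotypes.

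The genes whose levels ran most like those of Plagl1 over the 21 libraries, by Pearson r of log2 CPM among 10520 genes with a mean of at least 20 reads, were Cald1 (0.91), Rrp1b (0.89), Tnnt2 (0.88), Ccdc50 (0.86) and Knop1 (0.86). For Grb10 they were Naa40 (0.87), Ednra (0.86), Nedd4l (0.86), Actr3 (0.85) and Larp1b (0.85). Plagl1 and Ddc had an r of 0.75, Grb10 and Peg3 0.72, and Grb10 and its neighbour Ddc 0.56. These values share the days, the library sizes and the scaling of the same libraries, and are descriptions.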

How the data were processed

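RNA of PCM1-sorted CM nuclei was sequenced in pools of hearts with a QuantSeq 3′ kit. The authors trimmed the reads (cutadapt 4.0), aligned them with STAR 2.6.1e to GRCm39 and deposited whole-number counts per gene, made with HTSeq 2.0.3 over exons and introns and without normalization. The strand setting is not given in the sources used here. Genes inside a gene of the other strand were counted as often as the values in the report show, so strands were told apart. Gene names came from GENCODE vM39, which matched 56236 identifiers with 99.5% of the reads.

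Counts were tested with edgeR 4.0.16 in R 4.3.3 by a robust quasi-likelihood fit of 6 group means with TMM factors (15 residual degrees of freedom), on genes with 10 or more reads in all that were read in 3 or more libraries. A fold change against a group with no read uses a floor of 3 reads over the group, which covers counting error only. The labels do not name the type of replicate, and the paper describes each pool of hearts as a biological replicate. The deposited file names mark the replicate number as a batch, and deviations of same-numbered libraries of the 2 genotypes correlated at -0.08 to 0.24 over 9 pairs.

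The 10 genes and all lists were chosen with earlier results of these data known. The text names the 10 genes, listed genes that were called, neighbours of the 10, Casp2 and the 5 genes most like Plagl1 and Grb10. Alternatives were other filters, scalings, tests and sets of libraries. The fit was tested on simulated counts, and for P14 against P7 in controls it recovered 26 of 100 genes changed 16-fold and 0 of 100 changed 4-fold, among 19952 genes. For genotypes at P7 it recovered 43 of 100 changed 16-fold and 3 of 100 changed 4-fold, among 19965 genes. The changed genes were drawn from those above the median level, each with its own spread, and do not stand for the members.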

Additional observations from a re-analysis of the deposited data

Results flagged for a closer look

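Of the 26 sets of 4 libraries with reads of a member, 8 had a library that stood apart by Dixon's test at the 95% level. In 3 of them (H19 and Cdkn1c in P7 Casp2-depleted CMs and Dlk1 in P1 Casp2-depleted CMs) the other libraries were all at 0, which fixes the outcome. That leaves 5 of 23. Chance gives about 1 in 20 only for independent sets of normal values, and these sets share their libraries, so no excess is read from this. In P7 Casp2-depleted CMs replicate 1 was highest for Meg3 at 319 CPM, Igf2r at 39.2 CPM, H19 at 32.7 CPM and Cdkn1c at 2.80 CPM, and replicate 2 was highest for Plagl1 at 1820 CPM. Replicate 1 also had the lowest unassigned share of the 21 libraries, 34.3%. Ddc was highest in P7 control replicate 2 at 1522 CPM and in P1 Casp2-depleted replicate 2 at 3133 CPM, and Dlk1 in P1 Casp2-depleted replicate 1 at 25.6 CPM.

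In the 2 control libraries the study left out, some members exceeded every kept control library of the same day and others did not. In the left-out P14 Casp2-depleted replicate 1, Plagl1 at 223 and Ddc at 463 CPM without TMM scaling were the only members with reads. Plagl1 there exceeded every kept P14 control but not P14 Casp2-depleted replicate 4 at 289. Ddc exceeded every kept P14 Casp2-depleted library but not P14 control replicate 4 at 517. The study saw signs of cytoplasmic contamination in P1 control replicate 1. It held Grb10 at 958, Meg3 at 797, H19 at 203, Igf2r at 121, Cdkn1c at 28.1 and Dlk1 at 26.6 CPM without TMM scaling. Plagl1 reached 205 CPM without TMM scaling in P14 control replicate 3. In P1 control replicate 1, Ddc at 869 and Peg3 at 107 CPM without TMM scaling lay below every kept P1 control and Plagl1 at 1346 within their range, and in P14 control replicate 3 all members but Plagl1 and Ddc were at 0.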

How the results depend on the processing

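The counts of members called at P14 changed with the processing, and the causes were not tested. Numbers in parentheses are the calls over all genes in the same setting. From P7 to P14 in controls 4 members were called (382). There were 2 with no filter (306), filterByExpr (231), RLE factors (263), no TMM factors (121) or only the 2 groups (268). There was 1 with limma-voom (1150), all 24 libraries (35) or the unassigned share as a term (38). From P1 to P14 in controls 4 were called (65). There were 2 with filterByExpr (31), all 24 libraries (14), no TMM factors (41) or the unassigned share (66). There was 1 with only the 2 groups (28) and 0 with limma-voom (205). From P7 to P14 in Casp2-depleted CMs 2 were called (577). There was 1 with no filter (507), filterByExpr (392), RLE factors (404), DESeq2 (1171), all 24 libraries (124) or no TMM factors (248). There were 0 with limma-voom (830) or the unassigned share (147). From P1 to P14 in Casp2-depleted CMs 3 were called (396). There was 1 with limma-voom (429), all 24 libraries (61), no TMM factors (166) or without P1 Casp2-depleted replicates 1 and 4 (103). There were 0 with the unassigned share (95) and 5 with the newer quasi-likelihood method (570). Between genotypes at P14, 1 member, Grb10, was called (34). There were 0 with no filter (15), filterByExpr (3), limma-voom (116), all 24 libraries (29) or only the 2 groups (1). The same held with no TMM factors (7), edgeR without the robust option (47) or the newer method (0).

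Calls over all genes are again in parentheses. Leaving out single libraries gave 2 to 4 (176 to 502), 3 to 4 (29 to 143), 1 to 2 (258 to 642), 1 to 5 (175 to 508) and 0 to 1 (19 to 166) members in these 5 comparisons. Under a replicate block the counts were 3 (445), 3 (65), 2 (477), 4 (278) and 1 (13). Peg3 thus lost its calls in controls and gained a call from P1 to P14 in Casp2-depleted CMs, and no other call changed. The no TMM, robust, newer method, unassigned share and 2-library settings were chosen after seeing the data. Of the members' fold changes under all alternatives, 1827 lay within 1 SE of the reported value and 179 did not. Lying within 1 SE means little for members with few reads, whose SE was wide. The Dlk1 difference between genotypes at P1 had an SE of 2.73 and ran from -6.39 to 6.33 over the alternatives. No called member reversed its direction. Depth limits Igf2r, H19, Dlk1 and Cdkn1c, which had 39 to 618 reads in all, and P14 Grb10 in controls, with 6 reads.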
